A study of Mus musculus with 24 samples.

Results

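Heat shock chaperones bind unfolded or nascent proteins and help them fold, and 10 of their mRNAs are described here in mouse anterior cingulate cortex: Hspb1, Cryab, Hspa1a, Hspa1b, Hspa8, Hsph1, Dnajb1, Hsp90aa1, Hspd1 and Hspe1. They are 10 of the 15232 genes in the expression table, found by symbol, and all 10 passed the filter on low values, a mean of at least 1 FPKM over the 24 libraries. They were chosen by the FPKM of Hspb1 and Cryab, which were higher in trained than in untrained animals, so every value from that comparison describes the choice and supports nothing by itself. FPKM is fragments per kilobase of gene, scaled to library size, a scale on which levels of different genes can be set side by side. The working name for these genes was cytosolic heat shock chaperones, which does not hold for Hspd1 and Hspe1, since these encode the chaperonin of the mitochondrial matrix and its co-chaperonin.

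The study asked how thrombospondins 1 and 2, proteins that astrocytes secrete, take part in effortful action for a reward. Poly(A) RNA of whole cingulate tissue, a frontal part of the cortex, gave 1 library for each of 24 mice, in 3 arms of 8 animals with 4 females and 4 males each. The arms were untrained animals labelled WT, untrained animals labelled Thbs1/2 KO, and trained animals labelled Thbs1/2 KO. The 24 libraries hold no trained arm labelled WT, so the training difference cannot be compared between the labels. Training took place in operant boxes under food deprivation, so the training and the food deprivation cannot be told apart. The age, strain and kind of knockout are not given in the sources used here.

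The targeted genes went against the labels: Thbs1 was at 0.25 to 0.72 FPKM in the libraries labelled WT, 2.77 to 5.04 FPKM in the untrained ones labelled KO and 3.62 to 5.91 FPKM in the trained ones. Thbs2 was at 1.52 to 2.31 FPKM, 2.82 to 3.95 FPKM and 2.95 to 3.63 FPKM in the same order. Genotype is therefore written as a label throughout. All 8 trained animals had animal numbers over 1000, against 3 of the 16 untrained ones, all 3 male. Whole reads recovered from the FPKM steps came to 12343773 to 27233267 per library. In markers of neurons, astrocytes, oligodendrocytes, microglia, endothelial and mural cells, no gene was at 0 in any library. Summed striatal markers ranged from 47.3 to 335 FPKM, with the highest sum in an untrained library labelled KO. In bulk tissue, fewer cells of a type and less RNA per cell cannot be told apart.

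In the textbook account of the heat shock response, unfolded protein draws chaperones away from heat shock factor 1 (Hsf1), which then forms trimers, binds heat shock elements and switches on chaperone genes. Small heat shock proteins (Hspb1, Cryab) hold unfolding proteins in solution. Proteins of the Hsp70 class (Hspa1a, Hspa1b, Hspa8) refold them with ATP, aided by the J-domain protein Dnajb1 and by Hsph1, which exchanges nucleotide, and Hsp90 proteins (Hsp90aa1) act on kinases and steroid receptors. In brain, Hspa8 is the constitutive form that neurons use at high levels, and Cryab is known as an mRNA of oligodendrocytes and some astrocytes.

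The DNA before the gene starts is shown first, because heat shock elements are what the response reads. A heat shock element is built of TTC and GAA units facing each other, and 2 adjoining units were searched as TTCNNGAA or GAANNTTC, each of which reads the same on both strands. A stretch of 3 units was searched as TTCNNGAANNTTC or GAANNTTCNNGAA, which covers both strands and always holds 2 overlapping 2-unit matches. Windows of 250 bases before the annotated start were taken from RefSeq (GRCm38.p6) and were found for 7 of the 10 genes, by symbol. Below, the matched units are in capitals and each sequence runs 5′ to 3′ on the strand of its gene. The Hspb1 window holds 2 separate matches and lies at chr5:135887669-135887918, plus strand. The windows of Hspa1a (chr17:34972157-34972406) and Hspa1b (chr17:34959239-34959488), both on the minus strand, hold 1 match each at the same place. For Hspe1 and Hsph1 only the 30 bases around the matches are shown, at chr1:55088053-55088082 on the plus strand and chr5:149636351-149636380 on the minus strand.
Hspb1: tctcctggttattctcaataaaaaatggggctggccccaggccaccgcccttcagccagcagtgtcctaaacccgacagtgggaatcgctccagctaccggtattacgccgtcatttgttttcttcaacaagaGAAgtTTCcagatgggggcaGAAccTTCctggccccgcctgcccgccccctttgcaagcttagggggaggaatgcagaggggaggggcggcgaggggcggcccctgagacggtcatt
Hspa1a: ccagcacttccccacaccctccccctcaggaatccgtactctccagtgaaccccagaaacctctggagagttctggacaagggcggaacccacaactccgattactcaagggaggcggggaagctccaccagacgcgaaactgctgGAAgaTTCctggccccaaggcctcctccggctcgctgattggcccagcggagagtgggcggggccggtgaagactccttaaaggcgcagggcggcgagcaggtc
Hspa1b: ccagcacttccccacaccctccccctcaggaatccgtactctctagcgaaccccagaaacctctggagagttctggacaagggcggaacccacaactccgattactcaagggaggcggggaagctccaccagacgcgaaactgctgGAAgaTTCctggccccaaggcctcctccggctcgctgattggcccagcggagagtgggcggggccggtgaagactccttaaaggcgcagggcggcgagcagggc
Hspe1: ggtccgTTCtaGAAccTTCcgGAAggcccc
Hsph1: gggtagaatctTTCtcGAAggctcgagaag

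Of the 7 genes with a window, 6 held a 2-unit match in at least 1 window, beside 12.8% of all 32851 windows of this length. That share is per window, whereas a gene could have 2 windows. The genes were listed as heat shock proteins of the Hsf1 response, so matches before them describe the list and nothing is read from the count. Hspb1 had its matches 117 and 97 bases before the start, and 1.46% of all windows had 2 or more. The 3-unit match was found for 2 genes, Hspd1 and Hspe1, and in 0.466% of all windows. Those 2 genes lie head to head on chromosome 1, and the Hspe1 window shares 215 bases with the second Hspd1 window, so their matches are the same letters. The windows of Hspa1a and Hspa1b were identical at 247 of 250 bases, each with 1 match 104 bases before the start. No match was found in either Dnajb1 window, which says only that these letters are not in those bases. Cryab, Hspa8 and Hsp90aa1 had no window in the table.

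**Figure D1:**
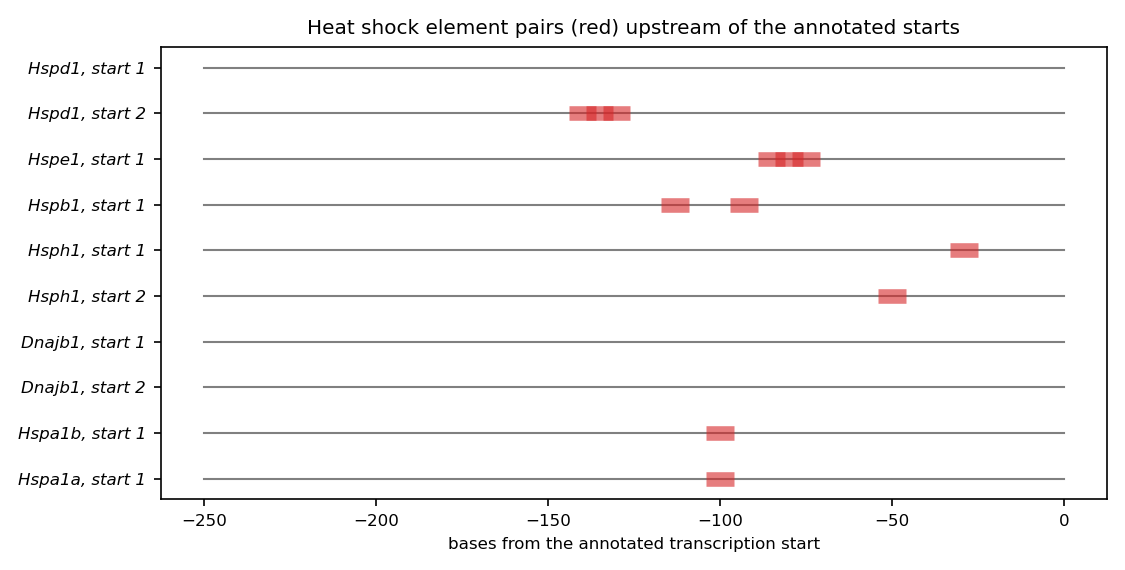
Positions of 2-unit heat shock element matches (red boxes) in the 250 bases before each annotated start, with distance from the start in bases on the horizontal axis and 1 line per RefSeq window. Hspb1 has 2 separate matches, at 117 and 97 bases, and the overlapping boxes of Hspe1 and the second Hspd1 window are runs of more than 2 units.

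Before any comparison, the genes spanned a wide range of levels. In the untrained libraries labelled WT, Hspa8 was highest per kilobase at 723 ± 42.9 FPKM (SD, n = 8), followed by Hsp90aa1 at 383 ± 28.6 FPKM (SD, n = 8) and Hsph1 at 84.0 ± 7.56 FPKM (SD, n = 8). Hspd1 at 64.5 FPKM, Cryab at 50.1 FPKM and Hspe1 at 40.5 FPKM followed on the mean, but the range of Cryab overlapped those of both neighbours. Dnajb1 averaged 21.2 FPKM. The classical stress-inducible members were scarce, with means of 2.43 FPKM for Hspb1, 1.13 FPKM for Hspa1b and 1.07 FPKM for Hspa1a, and the ranges of these 3 overlapped.

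The first comparison set the trained against the untrained libraries labelled KO. All 10 chaperone mRNAs had a higher mean in the trained libraries, by 2.39-fold for Hspa1b, 2.26-fold for Hspb1, 1.83-fold for Cryab, 1.82-fold for Hspa1a, 1.41-fold for Dnajb1, 1.37-fold for Hsph1, 1.22-fold for Hspd1, 1.21-fold for Hspa8, 1.12-fold for Hspe1 and 1.02-fold for Hsp90aa1. In a limma fit of log2(FPKM + 1) with sex as a covariate, 7 of the 10 passed an adjusted p of 0.05 and all 7 were higher. Over all 12572 genes tested, 3.5 percent passed as higher and 5.67 percent in either direction. Since this contrast chose the genes, nothing is read from that count.

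Hspb1 encodes the small heat shock protein Hsp27, which also caps actin filaments. The gene lies at chr5:135887919-135889563 on the plus strand in the GENCODE annotation of GRCm38, with up to 3 exons in a transcript. Its level ran from 0.621 FPKM through a median of 2.36 to 4.06 FPKM in the untrained libraries labelled WT, and from 1.41 through 2.19 to 4.35 FPKM in the untrained ones labelled KO. In the trained libraries it ran from 4.34 through 5.61 to 7.74 FPKM. These values rest on 8 to 69 reads per untrained library and 72 to 124 reads per trained library. The highest untrained value, 4.35 FPKM in male 2 labelled KO, lay just above the lowest trained value, so the groups met at that point. The fitted difference between trained and untrained libraries labelled KO was 0.97 ± 0.138 (SE) on the log2(FPKM + 1) scale. With a pseudocount of 0.1 it was 1.22, since adding 1 shrinks differences of low genes.

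Cryab encodes alpha-B crystallin, the small heat shock protein first known from the eye lens, and lies at chr9:50751325-50756636 on the plus strand. It did not follow the order of Hspb1 across the arms. In the untrained libraries labelled WT it ran from 30.7 through a median of 55.7 to 59.3 FPKM, in the untrained ones labelled KO from 21.1 through 27.7 to 39.2 FPKM, and in the trained ones from 33.1 through 47.6 to 87.6 FPKM. The untrained arm labelled KO had the lowest median, and all 3 ranges overlapped. The mean of that arm was 0.570 of that of the arm labelled WT, whereas the trained mean was 1.04 times the latter. For Hspb1 the same ratios were 1.05 and 2.37.

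The untrained libraries labelled KO entered the choice of Cryab, so its values by sex are a description and nothing is read from their p-values. By sex, Cryab was even in the 4 untrained males labelled WT, at 58.1 to 59.3 FPKM, and lay at 21.1 to 28.1 FPKM in the 4 untrained males labelled KO, with no overlap. Of all genes tested, 2.47 percent had all males labelled KO below all males labelled WT in the same way, and Cryab was the 1 gene of the 10. No gene of the 10 had all untrained libraries labelled KO below all labelled WT, where 0.278 percent of genes tested did, and for Cryab the females overlapped, at 30.7 to 53.4 FPKM labelled WT and 26.0 to 39.2 FPKM labelled KO. The genotype label by sex term was -0.74 ± 0.217 (SE) with an unadjusted p of 0.00347 in limma, and its adjusted p of 0.980 did not pass. That fit called 0 of 12572 genes (0 percent), with 394 below an unadjusted p of 0.05. In the trained arm the order was the other way on the mean, with females at 61.4 ± 19.4 FPKM (SD, n = 4) and males at 43.1 ± 8.18 FPKM (SD, n = 4).

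Cryab is an mRNA of oligodendrocytes, and their markers are given beside it. The summed level of 10 oligodendrocyte markers was 1094 to 1773 FPKM in the libraries labelled WT, 761 to 1435 FPKM in the untrained ones labelled KO and 1161 to 1928 FPKM in the trained ones, so the ranges overlapped. The trained library with the highest Cryab, female 3, also had the highest sum, and the trained library with the lowest Cryab, male 2, had the lowest trained sum. Trained male 1, female 1, male 4, female 2 and male 3 had Cryab at 53.0, 50.7, 44.5, 43.4 and 41.9 FPKM. Their sums were 1738, 1513, 1516, 1498 and 1439 FPKM, the same order except for the near-equal female 1 and male 4. Trained female 4 did not follow it. Its Cryab, 64.1 FPKM, was the second-highest of the trained libraries, and its sum, 1321 FPKM, the lowest but one. Among untrained libraries labelled KO, female 1 had the highest sum with Cryab at 26.5 FPKM. In the males labelled WT, where Cryab was even, the sum ran from 1284 to 1773 FPKM. The lowest sum of all, 761 FPKM, and the lowest Cryab, 21.1 FPKM, were both in untrained male 3 labelled KO. The fitted Cryab difference between the genotype labels was -0.70 without that library. The median log2 difference of the 10 markers was 0.29 between trained and untrained libraries labelled KO and -0.15 between the genotype labels, against 0.81 and -0.77 for Cryab. Of the 10 markers, 9 were above 0 in the first comparison and 0 in the second, so most went the same way as Cryab. None of the 10 passed the limma test in either comparison, and 6 and 0 had an unadjusted p under 0.05; on recovered reads with limma-voom 0 passed in either. Of 8 endothelial markers, Ly6c1 rose with training, by 0.49 ± 0.0928 (SE; limma adjusted p = 0.00763), and the summed level of the list was 52.0 to 72.3 FPKM in untrained libraries labelled KO and 56.3 to 85.1 FPKM in trained ones. Of 9 astrocyte markers 1 fell with training in limma, Sox9 by 0.32 on the log2(FPKM + 1) scale (limma adjusted p = 0.0242), 5 had an unadjusted p under 0.05 and the median was -0.16. The summed level of that list was 928 to 1211 FPKM in untrained libraries labelled KO and 876 to 1126 FPKM in trained ones. Of 10 mural and fibroblast markers 1 fell, Pdgfrb by 0.28 (limma adjusted p = 0.0311), and the median was -0.04. With 1 library left out, the Sox9 call was lost without trained females 1, 2 or 4 (adjusted p up to 0.0566). The Pdgfrb call was lost without trained females 1 or 3 or males 1 or 2, or untrained females 1, 3 or 4 or male 2 labelled KO (adjusted p up to 0.0688). Of all genes tested, 5.67 percent passed for training and 1.42 percent between the genotype labels, in either direction. The part of these markers in the Cryab values was not tested.

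**Figure D2:**
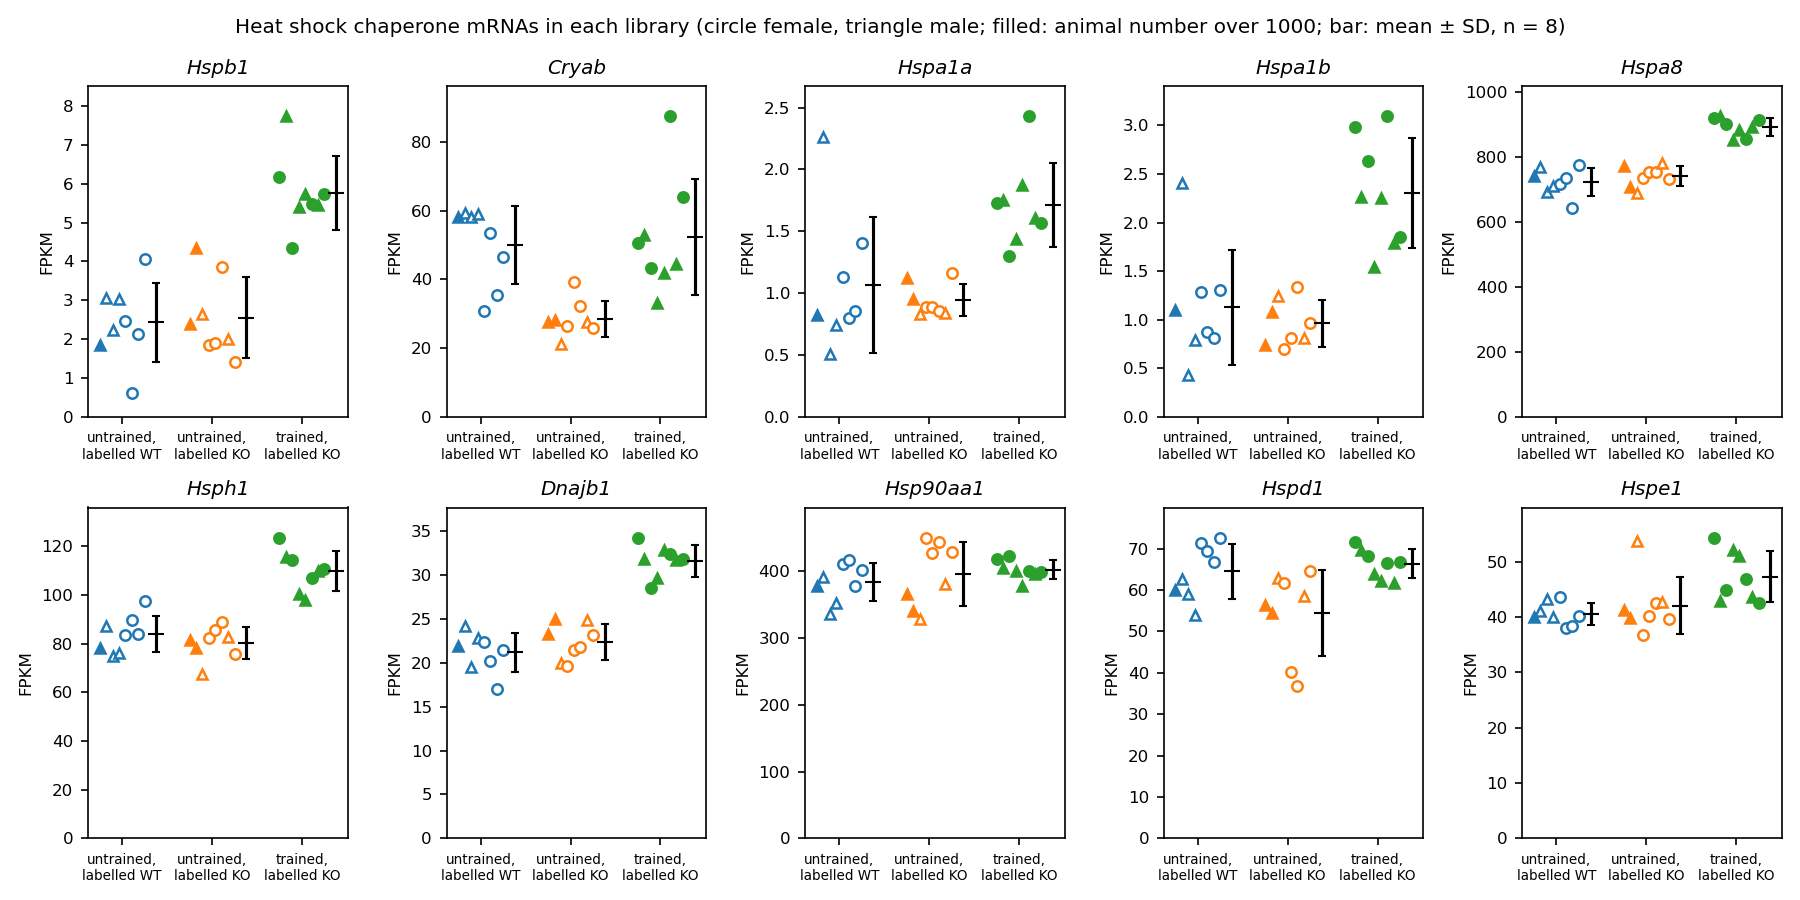
FPKM of the 10 chaperone mRNAs in each of the 24 libraries, with circles for females, triangles for males, filled symbols for animal numbers over 1000, and black bars for mean ± SD of each arm (n = 8); every axis starts at 0. The trained libraries lie above all untrained ones for Hspa8, Hsph1 and Dnajb1, while Cryab has its lowest median in the untrained libraries labelled KO and overlaps between all arms.

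Hspa1a and Hspa1b encode the inducible Hsp70. The genes have a single exon and are near-copies that start 12918 bases apart on chromosome 17, where Hspa1b starts 20.27 Mb from Thbs2, and 58.8% of the 50-base stretches of the Hspa1a transcript also occur in that of Hspa1b, so reads could be split between them and each value alone is uncertain. Hspa1b was at 0.433 to 2.41 FPKM (median 0.989) in the libraries labelled WT, 0.700 to 1.34 FPKM (median 0.892) in the untrained ones labelled KO and 1.54 to 3.10 FPKM (median 2.26) in the trained ones. Hspa1a was at 0.508 to 2.26 FPKM (median 0.837), 0.832 to 1.16 FPKM (median 0.888) and 1.30 to 2.43 FPKM (median 1.67) in the same order. For both genes every trained library was above every untrained one labelled KO, and 1 library labelled WT, male 2, reached into the trained range for both. Female 4 labelled WT, at 1.41 FPKM, reached into it for Hspa1a only. Counts were low, 24 to 123 reads for either gene in an untrained library and 67 to 168 in a trained one. The fitted training differences were 0.74 ± 0.0992 (SE) for Hspa1b and 0.47 ± 0.0747 (SE) for Hspa1a, and 1.17 and 0.79 with a pseudocount of 0.1.

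Hspa8, the constitutive Hsp70 that also uncoats clathrin vesicles, was the most abundant of the 10 in every arm. It was at 642 to 775 FPKM (median 726) in the libraries labelled WT, 690 to 782 FPKM (median 744) in the untrained ones labelled KO and 852 to 926 FPKM (median 896) in the trained ones. All 8 trained libraries lay above all 16 untrained ones. The fold was modest, but the spread was small, with a mean of 741 ± 31.0 FPKM (SD, n = 8) untrained and 893 ± 27.8 FPKM (SD, n = 8) trained, and a fitted difference of 0.27 ± 0.0436 (SE). The mean of Hsp90aa1, the next gene in level, was 395 FPKM untrained and 402 FPKM trained.

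Its partners showed the same separation. Hsph1, the Hsp110 nucleotide exchange factor, was at 74.8 to 97.4 FPKM (median 83.8) labelled WT, 67.6 to 88.9 FPKM (median 82.0) untrained labelled KO and 97.7 to 124 FPKM (median 110) trained. Dnajb1, the Hsp40 that delivers clients to Hsp70, was at 17.0 to 24.2 FPKM (median 21.7), 19.6 to 25.0 FPKM (median 22.4) and 28.5 to 34.3 FPKM (median 31.8) in the same order. For Dnajb1 a clear gap lay between the trained and all untrained libraries, whereas the highest library labelled WT for Hsph1, female 4, nearly touched the trained range. Their fitted training differences were 0.45 ± 0.0533 (SE) and 0.48 ± 0.0538 (SE).

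Hsp90aa1, the inducible cytosolic Hsp90, stood apart from this group. It was at 335 to 417 FPKM labelled WT (median 385), 328 to 450 FPKM untrained labelled KO (median 403) and 378 to 423 FPKM trained (median 400). The trained values lay inside the range of the untrained ones labelled KO, and the fitted difference was 0.03 ± 0.0513 (SE), which became -0.0023 after scaling the libraries to an equal sum.

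Of the mitochondrial pair, Hspd1 (Hsp60) was at 54.1 to 72.7 FPKM labelled WT (median 64.8), 36.9 to 64.6 FPKM untrained labelled KO (median 57.5) and 61.8 to 71.6 FPKM trained (median 66.6). Hspe1 (Hsp10) was at 38.0 to 43.7 FPKM (median 40.1), 36.8 to 53.8 FPKM (median 40.6) and 42.5 to 54.3 FPKM (median 45.8) in the same order. The low end of Hspd1 came from 2 untrained females labelled KO, at 36.9 and 40.3 FPKM. The untrained and trained groups labelled KO overlapped for Hspd1 through untrained female 4 and male 3, at 64.6 and 62.8 FPKM, and for Hspe1 through untrained males 3 and 4, at 53.8 and 42.6 FPKM. Fitted training differences were 0.30 ± 0.101 (SE) and 0.17 ± 0.0696 (SE).

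The lowest trained library lay above the highest untrained one labelled KO for 5 of the 10 genes (Hspa1a, Hspa1b, Hspa8, Hsph1 and Dnajb1), where 0.668 percent of all genes tested did so. Against all 16 untrained libraries 3 of the 10 did (Hspa8, Hsph1 and Dnajb1), where 0.334 percent of genes did. Against the arm labelled WT, which shares the trained libraries with the comparison above, 7 of the 10 passed in limma as higher, where 12.9 percent of genes did and 24.5 percent passed in either direction. Those without a call there were Cryab (0.04), Hspd1 (0.04) and Hsp90aa1 (0.07), while Hspb1 was at 1.03, Hspa1b at 0.66, Dnajb1 at 0.56, Hspa1a at 0.42, Hsph1 at 0.39, Hspa8 at 0.31 and Hspe1 at 0.21.

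Because all trained animals had numbers over 1000, the 3 untrained animals in that range, all male, are the closest match. Hspa8 was at 771, 707 and 740 FPKM in them (males 1 and 2 labelled KO and male 1 labelled WT), below the lowest trained library. Dnajb1 was at 23.2, 25.0 and 21.9 FPKM in the same order, and Hsph1 at 81.5, 78.2 and 78.4 FPKM. The 13 untrained animals with numbers under 1000 spanned 17.0 to 24.8 FPKM for Dnajb1, so that male 2 labelled KO lay just above them, and 67.6 to 97.4 FPKM for Hsph1, a range that held all 3. For both genes the 3 animals lay below the lowest trained library. Hspb1 was at 2.38, 4.35 and 1.86 FPKM, and 7 of 8 trained libraries were above all 3. Cryab was at 27.7, 28.1 and 58.2 FPKM, the last in the only library of the 3 labelled WT, and 2 of 8 trained libraries were above all 3.

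Over these animals, all 8 trained libraries exceeded all 3 untrained ones for 7 of the 10 genes, where 4.08 percent of genes tested did so. Among males alone it was 8 of 10, Hspb1 being the addition, where 7.52 percent did. In a fit over the libraries labelled KO with number over 1000 as a covariate, all 10 differences stayed above 0, from 0.11 ± 0.0852 (SE) for Hsp90aa1 to 0.71 ± 0.225 (SE) for Hspb1. In the males with numbers over 1000, 4 trained against 2 untrained, they ran from 0.16 ± 0.0819 (SE) for Hsp90aa1 to 0.72 ± 0.195 (SE) for Hspb1. Both fits draw the training difference from the same 2 untrained males labelled KO, so neither is a check on the other. In either fit 0 of the 10 genes and 0 of all genes passed in limma, with 8 of the 10 and 1306 or 1320 of 12572 at an unadjusted p under 0.05.

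**Figure D3:**
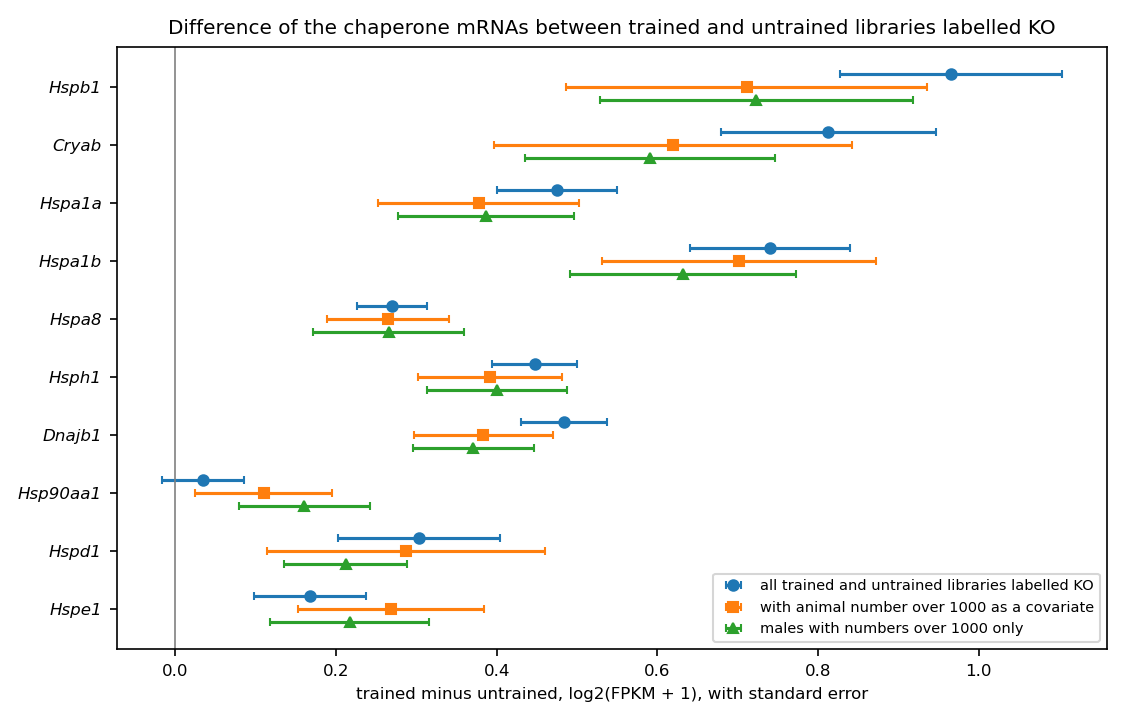
Difference in log2(FPKM + 1) between trained and untrained libraries labelled KO for each chaperone mRNA, with standard errors as bars, in 3 fits: all 16 libraries (blue circles), the same with animal number over 1000 as a covariate (orange squares), and males with numbers over 1000 (green triangles). Estimates stay above 0 in all 3 fits, Hspb1 goes from 0.97 to 0.71 and 0.72, and Hsp90aa1 lies nearest to 0. The orange and green fits rest on the same 2 untrained males labelled KO.

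The genotype labels were then compared in the untrained animals. Of the 8 genes other than Hspb1 and Cryab, 0 passed in limma (0 also with limma-voom), where 1.42 percent of all genes did, and 1 of 8 had an unadjusted p under 0.05. That gene was Hspd1, with 64.5 ± 6.61 FPKM (SD, n = 8) labelled WT and 54.5 ± 10.4 FPKM (SD, n = 8) labelled KO, a difference of -0.26 with an interval of -0.49 to -0.03 (95%) and a limma adjusted p of 0.324. The intervals of the others were narrow for the abundant genes, -0.06 to 0.13 for Hspa8, -0.06 to 0.14 for Hsp90aa1, -0.17 to 0.05 for Hsph1 and -0.07 to 0.16 for Hspe1. They were wider for Dnajb1 (-0.05 to 0.21), Hspa1a (-0.31 to 0.21) and Hspa1b (-0.37 to 0.21). Hspb1 and Cryab, whose untrained libraries labelled KO entered the choice, differed by 0.06 ± 0.198 (SE) and -0.77 ± 0.139 (SE), given as a description.

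Sex was tested across the 3 arms, with arm in the model, and 2 of the 10 genes passed, where 28.6 percent of all genes did. Hsp90aa1 was lower in males, with a male minus female difference of -0.17 ± 0.0383 on the log2(FPKM + 1) scale (SE; limma adjusted p = 0.00257). Its females labelled KO and untrained lay at 427 to 450 FPKM and the males of that arm at 328 to 380 FPKM, and the sexes overlapped in the other arms. The share of all genes that separate by sex in 1 arm was not counted. Hsph1 was lower too, at -0.12 ± 0.0417 (SE; limma adjusted p = 0.0302), a call that held in 18 of 24 fits with 1 library left out. It was lost without trained female 1, trained male 3, untrained female 3 labelled KO, or female 4, male 3 or male 4 labelled WT, with adjusted p up to 0.0579. When the libraries were adjusted for the GC content and length of genes, both differences kept their sign, at -0.09 and -0.10, but neither passed (limma adjusted p = 0.129 and 0.138), and 3.58 percent of all genes did.

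Whether training differed in size between the sexes was tested as an interaction, and 0 of the 10 genes passed in limma (0 also with limma-voom), where 0.00795 percent of all genes did. The smallest unadjusted p of the 10 was that of Hsp90aa1, 0.0068, with an adjusted p of 0.163. Its female mean was 437 FPKM untrained and 410 FPKM trained among libraries labelled KO, and its male mean 353 FPKM and 395 FPKM. The trained mean was thus the lower one in females and the higher one in males. The interaction term was 0.25 ± 0.0811 (SE).

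The wider chaperone network was described from lists written by role: heat shock factors, other cytosolic chaperones, co-chaperones and partners, and subunits of CCT, the ring that folds actin and tubulin. Of the 53 of these genes that were tested, 13 rose with training and 0 fell in limma, where 3.5 percent of all genes passed as higher. Their median log2 difference was 0.09, against 0.01 over all genes tested and 0.46 over the 10 chaperones. Chordc1, a partner of Hsp90, had the highest difference among them, at 0.56 ± 0.0963 (SE; limma adjusted p = 0.00369), with 11.7 to 21.0 FPKM in untrained libraries labelled KO and 19.4 to 28.1 FPKM in trained ones. The lowest trained library lay above the highest untrained one labelled KO for 5 of the 53 genes, where 0.668 percent of all genes tested did so. The 5 genes, named after their values were seen, were Hsp90ab1, the constitutive Hsp90, Stip1, which links Hsp70 to Hsp90, Ahsa1, which stimulates the Hsp90 ATPase, the small heat shock protein Hspb8, and the J-domain protein Dnaja4. Of these, Hsp90ab1 was at 683 to 742 FPKM untrained and 758 to 820 FPKM trained, and Stip1 at 63.7 to 79.4 FPKM and 84.6 to 96.7 FPKM. With animal number as a covariate 0 of the 53 passed in limma, 41 were above 0 and 23 had an unadjusted p under 0.05. That fit called 0 of all 12572 genes, with 1306 at an unadjusted p under 0.05.

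The heat shock factors themselves gave 0 calls for training among 4 tested in limma (0 also with limma-voom), with 1 at an unadjusted p under 0.05. Of all genes tested, 5.67 percent passed in either direction. That gene was Hsf1, at 11.05 to 17.4 FPKM untrained and 13.7 to 17.7 FPKM trained among libraries labelled KO, a difference of 0.25 ± 0.0783 (SE; limma adjusted p = 0.0642). Of 8 CCT subunits 1 rose, where 3.5 percent of all genes did, Cct5 by 0.17 ± 0.0430 (SE; limma adjusted p = 0.0322), and their median was 0.08. That call held in 7 of 16 fits with 1 library left out, with adjusted p up to 0.0711, and was lost without trained females 1, 2 or 3 or male 1, or untrained females 1, 2 or 3 or males 1 or 2 labelled KO. Of 10 other mitochondrial chaperones and proteases 1 rose, beside the same 3.5 percent, the protease Lonp1 by 0.21 ± 0.0374 (SE; limma adjusted p = 0.00396), and their median was 0.02. With the libraries scaled to an equal sum, 10 of the 53 network genes and 0 of the CCT subunits passed. That scaling moved the calls over all genes from 440 higher and 273 lower to 235 higher and 385 lower.

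Chaperones of the endoplasmic reticulum, which fold secreted proteins and answer to another stress pathway, were set beside them. Of 20 listed genes 17 rose with training and 0 fell in limma, where 3.5 percent of all genes passed as higher, and the median was 0.35. The highest were Sdf2l1 (0.98), Pdia4 (0.79), Creld2 (0.66), Hspa5 (0.65), Manf (0.63), Pdia6 (0.55) and Serpinh1 (0.55). Hspa5, the Hsp70 of that compartment, was at 81.3 to 114 FPKM in untrained libraries labelled KO and 129 to 165 FPKM in trained ones, with no overlap. Of all genes tested, 0.668 percent had every trained library above in the same way. With animal number as a covariate 0 of the 20 passed in limma, all 20 were above 0 and 17 had an unadjusted p under 0.05. As given above, 0 of all 12572 genes passed in that fit and 1306 had an unadjusted p under 0.05. Against the arm labelled WT, which shares the trained libraries, 16 of 20 passed as higher and 18 of the 53 network genes passed as higher with 2 lower, where 12.9 percent of all genes passed as higher. With animal number as a covariate, that comparison rests on 1 untrained library labelled WT with a number over 1000, male 1. The medians were then 0.45 for the 20 genes and 0.08 for the 53. Whether the calls hold cannot be told from 1 library.

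**Figure D4:**
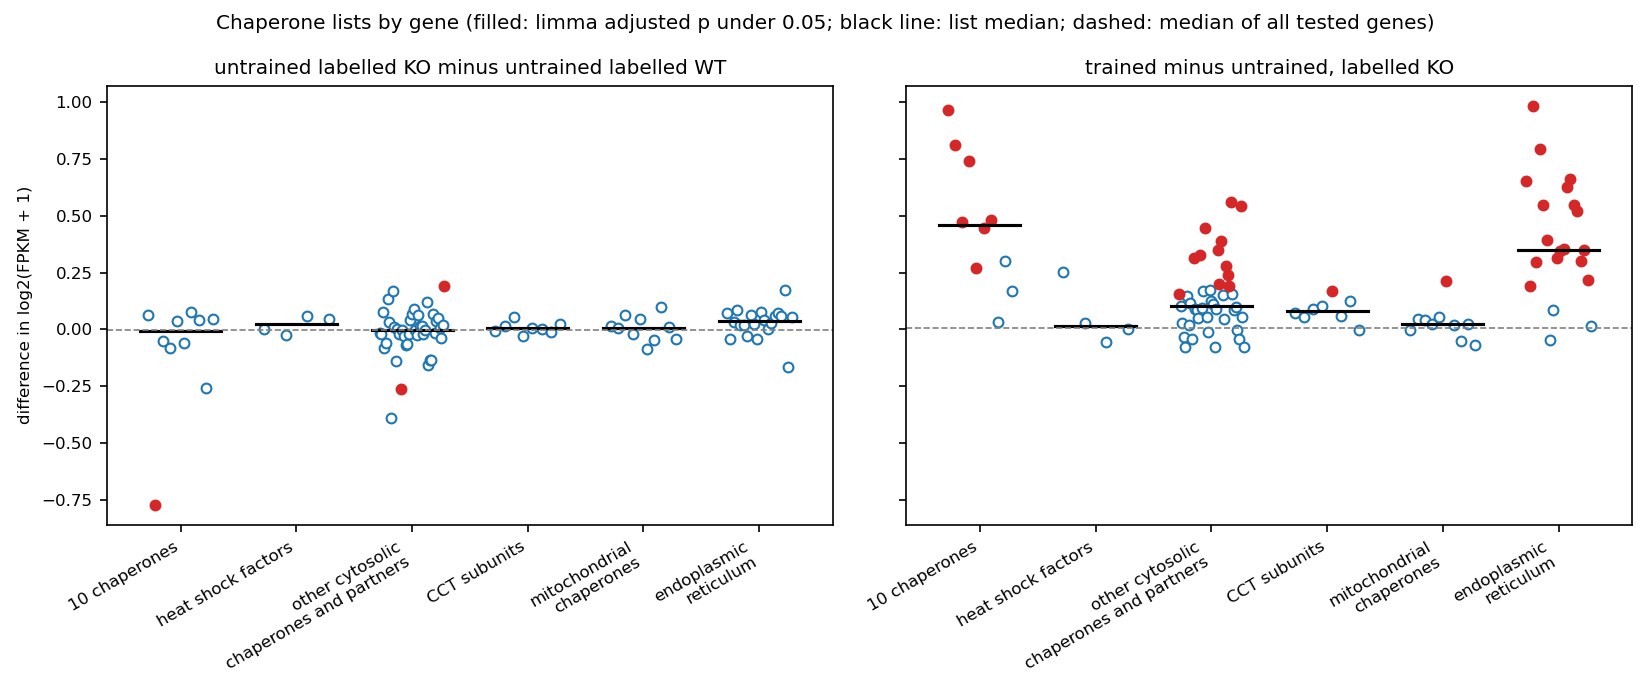
Difference in log2(FPKM + 1) of every tested gene of 6 chaperone lists between the genotype labels in untrained libraries (left) and between trained and untrained libraries labelled KO (right); filled points passed limma at an adjusted p of 0.05, black lines are list medians and the dashed line is the median of all tested genes. The medians of the 10 chaperones and of the endoplasmic reticulum list are at 0.46 and 0.35 on the right, and on the left Cryab at -0.77 is the lowest point, followed by Hspb3 at -0.39.

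Between the genotype labels in untrained libraries, 2 of the 53 network genes passed in limma, 1 in each direction, where 1.42 percent of all genes did. Nothing is read from so small a count, and the 2 genes are given as values. Dnaja4 was lower in libraries labelled KO, at -0.26 ± 0.0520 (SE; limma adjusted p = 0.0151), and Unc45a, a co-chaperone for myosin, was higher, at 0.19 ± 0.0431 (SE; limma adjusted p = 0.0313). The Dnaja4 call held in 16 of 16 fits with 1 library left out and the Unc45a call in 7 of 16, with adjusted p up to 0.0785. It was lost without females 1, 3 or 4 or male 2 labelled KO, or without females 2, 3 or 4 or males 2 or 3 labelled WT. None of the 20 endoplasmic reticulum genes passed in limma, where 1.42 percent of all genes did, with 2 at an unadjusted p under 0.05 and 0 called with limma-voom. The median of that list was 0.04.

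By sex, 18 of the 53 network genes passed in limma, 9 higher in males and 9 lower, where 14.8 percent of all genes were higher and 13.8 percent lower. Their median was 0.01. Among the larger differences, male minus female, were 0.29 for Stub1, a ubiquitin ligase that works with Hsp70, -0.25 for Dnaja1, -0.24 for Hspa4l, 0.23 for Hspbp1 and 0.22 for Hsf4. After correction for GC content and length 3 of the 53 passed. With the libraries scaled to an equal sum, the split was 5 higher and 18 lower, and over all genes it went from 1857 higher and 1738 lower to 972 higher and 2600 lower.

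Within an arm, the level of one chaperone was compared with that of another across the 8 libraries, for 6 pairs in 3 arms. Of these 18 relations, 1 passed an adjusted p of 0.05 and 3 had an unadjusted p under 0.05. Hspa1a and Hspa1b followed each other in the libraries labelled WT, with r = 0.97 (exact permutation p = 0.000372, adjusted 0.0067) and rho = 0.93 (exact permutation adjusted p = 0.0402). Without the 2 libraries farthest from the median, r was 0.93. In the untrained libraries labelled KO, r for the same pair was -0.29 (exact permutation p = 0.475, adjusted 0.713), and in the trained ones 0.53 (exact permutation p = 0.172, adjusted 0.515). The 2 genes share sequence, as given above.

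Hsph1 and Hspa8 had r = 0.50 in the libraries labelled WT, 0.75 in the untrained ones labelled KO and 0.76 in the trained ones, with exact permutation adjusted p of 0.531, 0.182 and 0.182. Their rho was 0.62, 0.71 and 0.88 in the same order, with exact permutation adjusted p of 0.414, 0.259 and 0.0652. Without the 2 libraries farthest from the median of Hsph1, r was 0.18, 0.55 and 0.89. Hspb1 and Cryab, the genes that gave the choice, had r of -0.07, 0.04 and 0.19 and rho of 0.17, 0.33 and 0.52, and no exact permutation adjusted p of theirs was below 0.442. Leaving out the 2 libraries farthest from the median of Hspb1 gave r of 0.21, -0.34 and 0.10. Hspd1 and Hspe1, which share a promoter region, had r of -0.08, 0.11 and 0.02 and rho of 0.07, -0.14 and 0.02, with exact permutation adjusted p of 0.958, 0.958 and 0.967 for r. Without the 2 libraries farthest from the median of Hspd1, r was -0.20, 0.23 and -0.88. The value for the trained arm thus depended on 2 libraries.

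The genes most like Hspb1, Cryab and Hspa8 were sought by Pearson r over the 24 libraries after the mean of each arm and sex was removed, as a description over libraries that share depth and preparation. For Hspb1 they were Ddx19a (0.828), Tax1bp3 (0.709), Ankub1 (0.708), Ehd2 (0.702) and Mettl13 (0.690). For Cryab they were Ttyh2 (0.757), Cntn2 (0.728), Atxn2 (0.722), Wdtc1 (0.721) and Zmym1 (0.718), and for Hspa8 they were Brix1 (0.814), Epc2 (0.812), Spred1 (0.805), Nr1d2 (0.804) and Nsun2 (0.790). The 10 chaperones themselves were left out of the search.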

How the data were processed

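The authors deposited 1 table of FPKM values for 15232 genes and 24 libraries, whose headers call the values counts. The submitters' processing notes list FastQC 0.11.7, Trimmomatic 0.38, STAR 2.5.3a, featureCounts of Subread 1.6.3 and the build mm10, and the annotation and settings are not given in the sources used here. Animal numbers in the headers and labels link each column to its sample and give each library its own animal. The chaperones and gene lists were chosen with earlier results of these data known.

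The 12572 genes averaging 1 FPKM or more were tested on the log2(FPKM + 1) scale in R 4.3.3 with limma 3.58.1 (trend=TRUE in eBayes). A model held the 2 arms compared and sex, and the model for sex held all 24 libraries and the arm. P-values were adjusted by Benjamini-Hochberg and called at 0.05. Pairs were compared with exact permutation tests, 2-sided. FPKM steps gave back whole reads, within 0.01 read for 99.99% of values, which cover counting error only.

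Alternatives changed the pseudocount to 0.1, dropped the filter or raised it to 5 FPKM, and used equal-sum or median-ratio scaling, limma-voom on the recovered reads, an adjustment for GC and length in 20 bins each (GC known for 96.4% of genes), no sex covariate, all libraries in one fit, a block for replicate numbers, each library left out, and splits or a covariate at animal number 1000. The 10 chaperones are all named, with called list genes up to 8 per comparison by size, and others named after their values were seen are marked so. Loci come from GENCODE M21 (GRCm38) and promoter windows from RefSeq (GRCm38.p6). Python 3.11.15, pandas 2.3.3, numpy 2.4.6 and scipy 1.17.1 were used.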

Additional observations from a re-analysis of the deposited data

Results flagged for a closer look

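Of 87 groups of 8 libraries examined for a single value far from the others, 4 had one, where chance gives about 1 in 20, and 2 of these 4 were among the 30 groups of the 10 chaperones. Hspa1b was at 2.41 FPKM in male 2 labelled WT, and its gap to the nearest library of that arm was 0.559 of the whole range. Hspe1 was at 53.8 FPKM in untrained male 3 labelled KO, with a gap of 0.657. That library also had the most recovered reads, 27233267, and the lowest oligodendrocyte marker sum. Without it the Hspe1 difference between trained and untrained libraries labelled KO was 0.22, against 0.17 with it. It then passed (limma adjusted p = 0.0309), in 1 of 16 fits with 1 library left out. Leaving out the highest untrained value raises this difference by itself, and this contrast chose the genes, so nothing is read from that pass. Female 4 labelled WT held the other two values, 9.23 FPKM for Sdf2l1 with a gap of 0.573, and 26.5 FPKM for Chordc1 with a gap of 0.562.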

How the results depend on the processing

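In the training comparison, where 7 chaperones passed, the count was 4 at a mean FPKM of at least 5, which leaves Hspb1, Hspa1a and Hspa1b untested. It was 4 with the replicate block, where 29 of all genes passed. It was 0 with the animal number covariate or in males with numbers over 1000, where 0 of all genes passed. The 13 network genes became 1 with the block and 0 with the number covariate and in those males. Against libraries labelled WT, 7 chaperones became 4 at a mean FPKM of at least 5. With the number covariate that comparison rests on 1 untrained library labelled WT. Whether the 7 chaperone and 20 network calls hold there cannot be told. Between genotype labels, 1 chaperone (Cryab, a description) and 2 network genes became 0 and 0 in animals with numbers under 1000 (2 and 5 unadjusted). There 127 of all genes passed. The network count was 1 without the sex covariate and 0 with the block (6 unadjusted), where 98 and 114 of all genes passed. For sex, GC and length correction left 0 of 2 chaperones (3 unadjusted) and 3 of 18 network genes, and numbers under 1000 left 1 chaperone. The cause was not tested.

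With each library left out, the chaperones called numbered 7 to 8 for training, 7 against WT, 1 between genotype labels and 1 to 2 for sex, and the network genes 10 to 15, 17 to 23, 1 to 3 and 14 to 23. Titles number the libraries within arm and sex. Same-numbered libraries correlated at a mean of 0.025, -0.07 and -0.102 in the genotype label, training and WT comparisons, and each library correlated best with its own number in 2 of 16, 1 of 14 and 0 of 14 cases, so the numbers do not pair them. A trained female carries no number, and the block omits it and its partner.

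Signs turned for differences near 0. Between genotype labels Hspb1 became -0.0482 with numbers under 1000 and ran from -0.0744 to 0.1784 with 1 library left out, where Hspa1a ran from -0.1146 to 0.0569, Hspa1b from -0.1633 to 0.0292 and Hspe1 from -0.0034 to 0.0677. Hsp90aa1 was at -0.0023 for training after equal-sum scaling. Cryab against WT was at -0.0011 (equal sum), -0.0271 (GC and length), -0.2133 (number covariate), -0.0181 (replicate block) and -0.0828 to 0.1325 (1 library left out). The number covariate value rests on 1 library labelled WT. For sex, GC and length correction gave Hspb1 -0.0181 and Hspa8 0.0334, numbers under 1000 gave Cryab 0.1496, Hspa1b 0.0272 and Hspa8 0.001, and leaving out 1 library gave Cryab -0.128 to 0.016, Hspa1a -0.0963 to 0.0152 and Hspa8 -0.0188 to 0.0082. Of the other single-gene values, 448 kept their direction and side of the threshold, 28 lost it and 3 gained it.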
